A study of Mus musculus with 8 samples.

Results

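Cytoplasmic polyadenylation proteins decide which stored mRNAs of the egg have their poly(A) tail lengthened or shortened, and so which are translated. They were examined here through their own mRNAs, as 8 of the 18194 genes named singly on the array: Cpeb1, Cpeb2, Cpeb3, Cpeb4, Dazl, Pabpc1l, Parn and Sympk. Members were every probe set that GEO's platform annotation gives to one of these symbols alone, which made 18 of 45101 probe sets. Messenger RNA on polysomes (mRNA carrying several ribosomes) was hybridised to 8 arrays from batches of 160 to 500 mouse cells. The one-cell embryos (4 arrays) had received α-amanitin, a toxin that blocks RNA polymerase II, and the oocytes (4 arrays) were at metaphase II (MII). The labels used here name no strain, maternal age, hour of collection or sire. Embryo stage and α-amanitin go together, so their effects cannot be told apart. Total RNA was not analysed here, so less of an mRNA in the cell and less of it on ribosomes cannot be told apart either.

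Growing oocytes store mRNAs with short poly(A) tails. CPE-binding proteins (CPEB) sit on U-rich elements in the 3′ untranslated region. In Xenopus oocytes, CPEB1 holds there a complex with the cleavage and polyadenylation specificity factor, the scaffold symplekin (Sympk), a cytoplasmic poly(A) polymerase and the poly(A) ribonuclease PARN, and its phosphorylation during maturation lets the tail grow. CPEB1 is then largely degraded, and in Xenopus CPEB4 takes over in the second meiotic division. The germ cell protein DAZL binds other 3′ elements and promotes translation of many maternal mRNAs in mouse oocytes. PABPC1L, also called embryonic poly(A)-binding protein, coats the lengthened tails and is needed for oocyte maturation in the mouse.

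The arrays were of unequal quality. The deposited signals are in arbitrary units and every array had the same trimmed mean. The median of one-cell array 1 was 71.8, while one-cell arrays 2 to 4 had medians of 27.8 to 37.9 and MII arrays 26.9 to 33.8. Its hybridization controls, which are bacterial and phage transcripts, averaged 14879, compared with 857 to 3718 for one-cell arrays 2 to 4 and 905 to 1364 for MII arrays (two-sided exact permutation p = 0.143 between the groups). All 11 oocyte markers lay above the array median on at least 4 arrays, with summed signals of 57580 to 93617 in one-cell embryos and 68270 to 92271 in MII oocytes. The 12 measured cumulus and granulosa cell markers summed to 1487 on one-cell array 1, to 404 to 786.5 on arrays 2 to 4 of the embryos and to 520 to 646 in MII oocytes, and 7 of them lay above the median on at least 4 arrays. Amh was under the median on all 8. The 7 sperm markers summed to 454 on one-cell array 1, 170 to 274 on the others and 153 to 244 on the MII arrays. Of them, 3 lay above the median on at least 4 arrays, while Tnp1, Tnp2 and Smcp were under it everywhere. The part of these cells and of array quality in the results below was not tested. The labels state 4 independent replicates of each kind, but not whether these came from separate collections. The p-values therefore measure the spread between arrays, which may in part be technical.

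In one-cell embryos the polysomal mRNA of Cpeb1 fell, and so did those of Cpeb4 and Cpeb3, each on 2 of its probe sets and not on the others. Pabpc1l, Parn and Sympk rose, each on 1 probe set. Dazl lay lower by a smaller amount that did not pass the test, and Cpeb2 lay near or under the array median in both groups. Each change is the embryo mean less the oocyte mean of log2(signal + 10), which understates the change of dim mRNAs, with the SE of limma and p-values adjusted by Benjamini-Hochberg over all 23336 probe sets kept. A probe set was kept where it exceeded the array median on at least 4 of 8 arrays. This held for 16 of the 18 member probe sets, of which 12 exceeded it on all 8 arrays. The 2 dropped both belong to Cpeb2.

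Of the 16, 3 were higher and 5 lower in one-cell embryos at an adjusted p under 0.05. Of all probe sets kept, 32.1% were called, 19.3% as higher and 12.8% as lower. The 3 higher calls (18.8% of 16) are thus near the general share, and the 5 lower calls (31.2%) come from only 3 genes, whose probe sets read the same mRNAs. The groups did not overlap in 8 of the 16, against 32.6% of all probe sets kept. The median change of the 16 was -0.56, and that of all probe sets kept 0.17. Without one-cell array 1 the counts were again 3 higher and 5 lower, with medians of -0.31 and 0.03, and they were the same without one-cell arrays 1 and 4 (medians -0.19 and -0.02). With quantile normalization, where the median of all probe sets was -0.12, 3 were higher and 6 lower. With each array centred on its median, where it was -0.15, 2 were higher and 5 lower. The general share of higher calls among all calls was 60.2% as deposited, 48.7% with quantile normalization and 50.8% with centring.

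**Figure D1:**
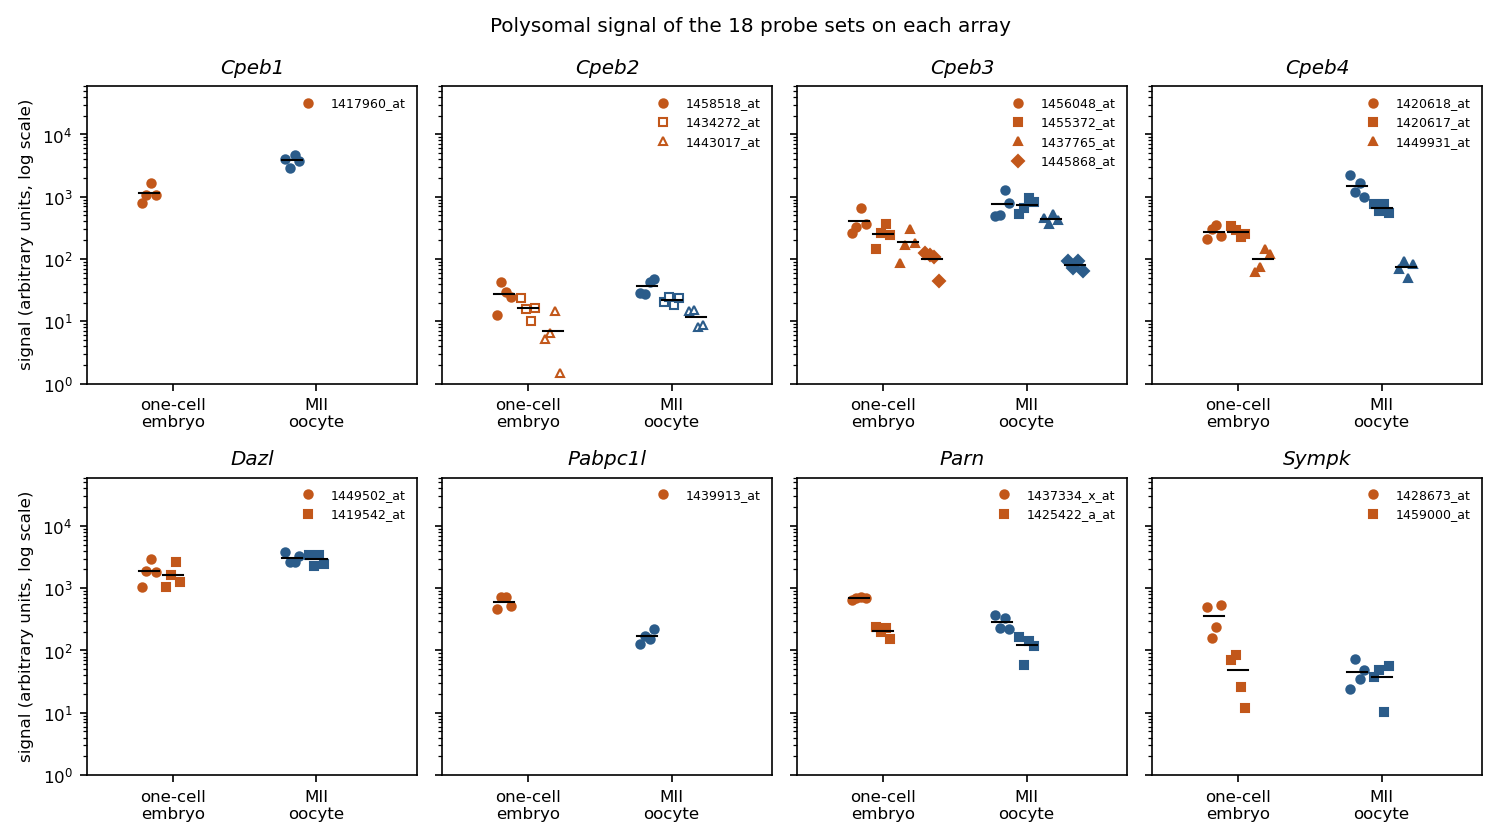
Signal of the 18 probe sets (arbitrary units, log scale) on each array, with one-cell embryos left and MII oocytes right in each panel. Points are arrays, black bars group means, shapes probe sets, and open symbols the 2 Cpeb2 probe sets that were not tested. Cpeb1 runs from 802 to 1642 in one-cell embryos, under the lowest MII value of 2904.

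Cpeb1, the founding CPE-binding protein, has 1 probe set (1417960_at). Its signal was 802, 1076, 1642 and 1082 on one-cell arrays 1 to 4, against 4011, 2904, 4716 and 3738 on MII arrays 1 to 4. All 4 embryo values lay below all oocyte values, with one-cell array 3 the nearest. The means were 1151 ± 353 in one-cell embryos and 3842 ± 749 in MII oocytes (SD, n = 4 each), 3.34-fold lower in embryos. The log2 change was -1.76 ± 0.31 (limma, adjusted p = 0.000384). It passed the test under every alternative tried, with changes from -2.07 (median centring) to -1.34 (hybridization controls as a covariate).

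Cpeb4, which binds the same kind of element and in Xenopus acts in late meiosis, fell on 2 of its 3 probe sets. On 1420618_at the signal was 209, 299, 355 and 231 on the one-cell arrays, against 2216, 1178, 1650 and 999.8 on the MII arrays. The highest embryo value, 355, was far below the lowest oocyte value, 999.8, and the means were 5.53-fold apart. Its log2 change of -2.39 ± 0.31 (limma, adjusted p = 2.28e-05) was the largest fall among the members.

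The second Cpeb4 probe set, 1420617_at, read 336, 296, 222 and 249 in one-cell embryos, against 766, 596, 777 and 540 in MII oocytes. The groups were again apart, by 2.43-fold in their means (log2 change -1.25 ± 0.27, limma adjusted p = 0.00196). The third, 1449931_at, read 60.8, 73.7, 147 and 119 in embryos, against 69.4, 93.8, 49.9 and 84.6 in oocytes, and these groups overlapped. Its change was 0.34 ± 0.35 (limma, adjusted p = 0.524), with a 95% interval from -0.41 to 1.09, and its sign turned with quantile normalization (-0.18). The mean of the 3 probe sets changed by -1.10 ± 0.22 (limma, adjusted p = 0.00155).

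Cpeb3, a family member known mainly from neurons, has 4 probe sets, all kept. The fall was clearest on 1455372_at, at 145, 260, 364 and 247 in one-cell embryos, against 520, 662, 949.6 and 824 in MII oocytes. The groups did not overlap, and the change was -1.54 ± 0.31 (limma, adjusted p = 0.00127). On 1437765_at the signal was 85.3, 168, 307 and 180 in embryos, against 454, 362, 531 and 417 in oocytes, also without overlap. This change was -1.32 ± 0.34 (limma, adjusted p = 0.00627), and it was lost with the hybridization controls as a covariate (-0.65 ± 0.27, limma adjusted p = 0.0978).

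The brightest Cpeb3 probe set by mean log2 signal, 1456048_at, read 260 to 660 in embryos and 493 to 1296 in oocytes. Its groups overlapped, since one-cell array 3 exceeded MII arrays 1 and 2, and its change of -0.91 ± 0.36 did not pass (limma, adjusted p = 0.0627). Of 21 alternatives, 8 passed. They include the mean over all 4 Cpeb3 probe sets, given below, which is not a refit of this probe set. Among the others were the fits without one-cell array 3 (-1.17, limma adjusted p = 0.0206), without MII array 1 (-1.09, adjusted p = 0.0472) and without MII array 2 (-1.06, adjusted p = 0.0482). The last Cpeb3 probe set, 1445868_at, read 44.3 to 126 in embryos and 65.3 to 94.0 in oocytes. Its change was 0.19 ± 0.35 (limma, adjusted p = 0.748), and its sign turned with quantile normalization (-0.27) and with centring (-0.13). Over all 4 probe sets, the mean changed by -0.90 ± 0.27 (limma, adjusted p = 0.02).

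Cpeb2, the remaining family member, was dim throughout. Its only probe set kept, 1458518_at, read 12.7, 42.2, 29.8 and 24.8 in one-cell embryos, against 28.1, 27.7, 42.8 and 48.1 in MII oocytes. It exceeded the array median on 2 one-cell and 3 MII arrays, and its change of -0.36 ± 0.45 did not pass (limma, adjusted p = 0.61). The other probe sets of Cpeb2 stayed under the median on all 8 arrays, at no more than 23.8 and 14.7 in embryos, and 24.3 and 15.3 in oocytes. No level of Cpeb2 can be set from such signals.

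**Figure D2:**
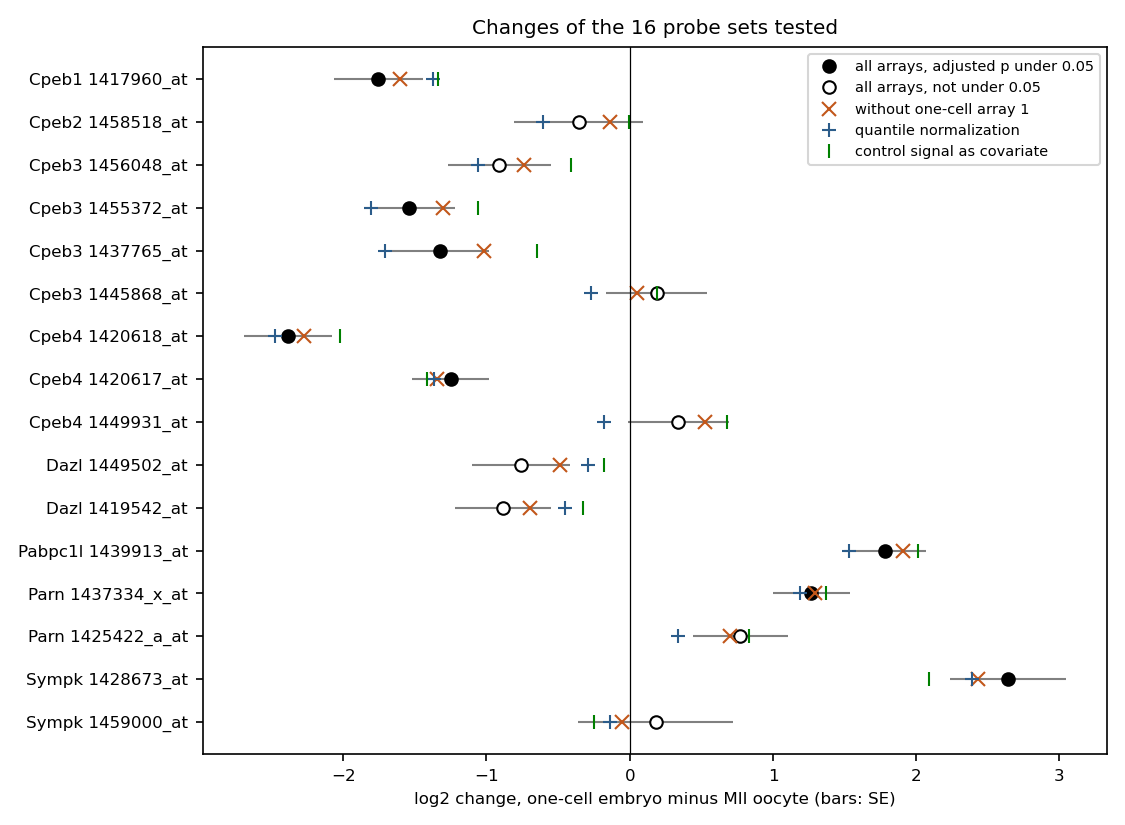
Log2 change (one-cell embryo minus MII oocyte) of the 16 probe sets tested, with the SE of limma as bars and filled circles for an adjusted p under 0.05. Coloured marks repeat the change without one-cell array 1, with quantile normalization and with the control signal as a covariate. Cpeb1, Cpeb4 (2 probe sets), Cpeb3 1455372_at, Pabpc1l, Parn 1437334_x_at and Sympk 1428673_at pass the test in each of these. The changes of Dazl keep their sign but shrink to between -0.69 and -0.18.

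Dazl, whose protein binds 3′ untranslated regions in germ cells, was read by a pair of probe sets with similar values. On 1449502_at the signal was 1028, 1888, 2969 and 1817 in one-cell embryos, against 3871, 2644, 2601 and 3242 in MII oocytes. The groups overlapped through one-cell array 3, which exceeded MII arrays 2 and 3. The means were 1926 ± 798 in embryos and 3089 ± 597 in oocytes (SD, n = 4 each). The log2 change was -0.76 ± 0.34 (limma, adjusted p = 0.106, unadjusted 95% interval from -1.48 to -0.03).

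The other Dazl probe set, 1419542_at, read 1040, 1606, 2640 and 1280 in embryos, against 3428, 2256, 3463 and 2462 in oocytes, overlapping again only through one-cell array 3. Its change was -0.88 ± 0.34 (limma, adjusted p = 0.0548, unadjusted 95% interval from -1.59 to -0.17). Without one-cell array 3 both passed, at -1.0 (limma, adjusted p = 0.0383) and -1.14 (adjusted p = 0.0158). Without one-cell array 1 neither did, at -0.49 (limma, adjusted p = 0.185) and -0.69 (adjusted p = 0.0823). With the control signal as a covariate the changes were -0.18 and -0.33. With all arrays, 1419542_at also passed with array weights (-0.79, limma adjusted p = 0.0325) and with a stricter filter on dim probe sets (-0.88, adjusted p = 0.0408), while 1449502_at passed under neither. Whether Dazl was called lower therefore depended on the arrays used and on the fit.

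The lowest and the highest embryo array were the same in most member probe sets. One-cell array 1 was the lowest of the 4 one-cell arrays in 11 of the 16 probe sets, and in 8 of the 9 whose change was negative. One-cell array 3 was the highest in 10 of 16, and in 7 of those 9. Several of these probe sets read the same gene. The shares over all probe sets kept were not computed, so this order cannot be called particular to the members. The control signal was highest on array 1 (14879) and lowest on array 3 (857). Its part in the lower signals of array 1 was not tested beyond the covariate fit. Without one-cell array 1, Cpeb1 changed by -1.60, Cpeb4 by -2.27 and -1.35, Cpeb3 by -1.30 and -1.02, Pabpc1l by 1.90, Parn by 1.29 and Sympk by 2.43 on the probe sets called with all arrays, and each was called again.

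**Figure D3:**
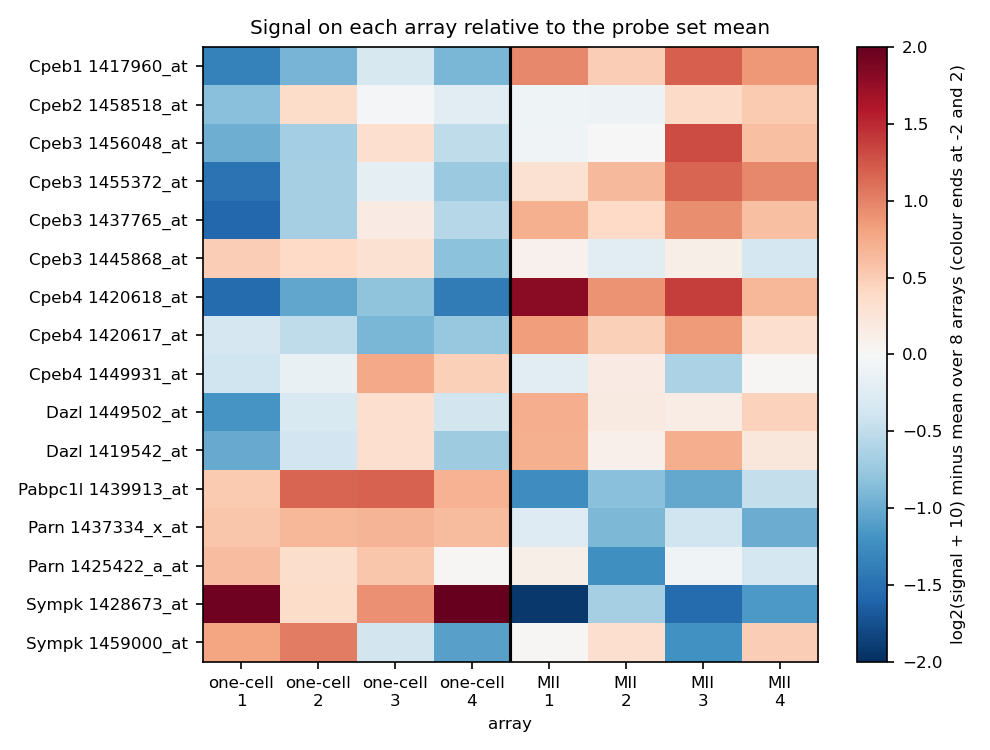
Log2(signal + 10) of the 16 probe sets on each array minus the probe set's mean over the 8 arrays, one-cell arrays left and MII arrays right. Blue is below and red above the mean, with colours ending at -2 and 2. The column of one-cell array 1 holds the lowest embryo value in 11 of 16 rows.

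Array scaling and array-wide brightness cancel, apart from the offset and any effect that depends on brightness, in the ratio of 2 mRNAs on one array. The brightest probe sets of Cpeb1, Cpeb3, Cpeb4 and Dazl were therefore set against each other, in 6 pairs chosen after the values had been seen. With 4 arrays against 4, the smallest two-sided p of an exact permutation test is 0.0286. Such a ratio shows unequal change and not which mRNA moved.

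Cpeb1 over Dazl had a log2 ratio of -0.35, -0.81, -0.85 and -0.74 on one-cell arrays 1 to 4, against 0.05, 0.13, 0.86 and 0.20 on MII arrays 1 to 4. All embryo ratios were below all oocyte ratios, and the difference was -1.0 (exact permutation p = 0.0286, 0.0429 after adjustment over 6 pairs). Cpeb1 was thus lower relative to Dazl in every embryo array than in any oocyte array. Without one-cell array 1 the difference was -1.11.

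Cpeb4 over Dazl had ratios of -2.25, -2.62, -3.03 and -2.92 in embryos, against -0.80, -1.16, -0.65 and -1.69 in oocytes, again without overlap. This difference of -1.63 (-1.78 without one-cell array 1) gave the same exact p of 0.0286, adjusted to 0.0429. Cpeb4 relative to Cpeb3 changed by -1.48 (-1.53 without one-cell array 1), and Cpeb3 relative to Cpeb1 by 0.85 (0.86 without it), each with an exact p of 0.0286 and an adjusted p of 0.0429. Cpeb4 relative to Cpeb1 changed by -0.63 (exact permutation p = 0.0571, adjusted 0.0686), with overlapping groups. Cpeb3 relative to Dazl changed by -0.15 (exact permutation p = 0.771), with SDs of 0.24 in embryos and 0.81 in oocytes. The probe set of Cpeb3 in these pairs is the one with overlapping groups, and a steeper one would give other differences. That of Cpeb4 is the steepest of its 3, which changed by -2.39, -1.25 and 0.34. The differences given for Cpeb4 hold for that probe set only, and ratios with its others over other genes were not computed.

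**Figure D4:**
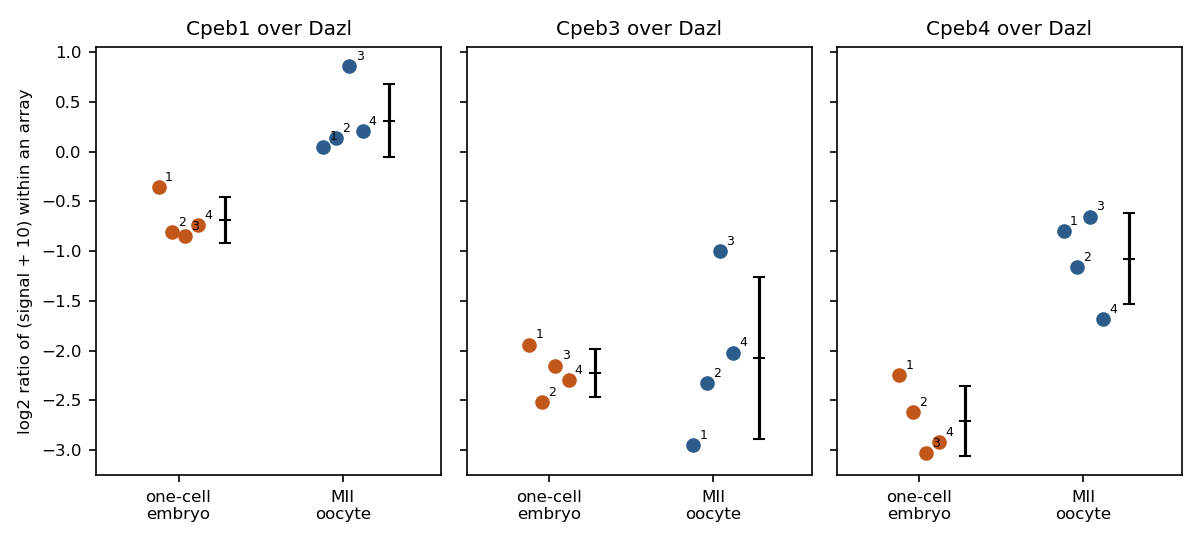
Log2 ratio of (signal + 10) within an array for Cpeb1, Cpeb3 and Cpeb4 over Dazl, with one-cell embryos left and MII oocytes right, numbered by array. Bars beside the points are mean ± SD (n = 4). The embryo and oocyte points of Cpeb1 and of Cpeb4 are apart, while those of Cpeb3 overlap.

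Probe sets of 1 gene also differed in their change. Of 12 such pairs within genes, also compared after the values had been seen, 5 reached the smallest exact p of 0.0286, 3 of Cpeb4 and 2 of Cpeb3, which gave 0.0686 after adjustment over the 12. On 1420618_at against 1449931_at, Cpeb4 differed by -2.73 on the log2 scale. The second of these was dim, at 60.8 on one-cell array 1, whose median was 71.8. The 2 Dazl probe sets differed by 0.12 (exact permutation p = 0.629). The position of each probe set on its transcript was not analysed here, and the part of transcript ends or forms in these differences was not tested.

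Pabpc1l, the embryonic poly(A)-binding protein, was higher in embryos on its only probe set, 1439913_at. The signal was 458, 721, 730 and 515 in one-cell embryos, against 128, 172, 151 and 225 in MII oocytes. The lowest embryo value was above the highest oocyte value, and the means of 606 ± 140 in embryos and 169 ± 41.6 in oocytes (SD, n = 4 each) stood 3.59-fold apart. The log2 change was 1.78 ± 0.29 (limma, adjusted p = 0.000168), and it passed under every alternative tried, from 1.47 to 2.07.

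Parn, the poly(A) ribonuclease that shortens tails, was read by 2 probe sets. On 1437334_x_at the signal was 655, 709, 717 and 697 in one-cell embryos, against 372, 234, 334 and 219 in MII oocytes. The embryo arrays lay within a coefficient of variation of 3.95%, the smallest spread among the members, and the groups were apart. The change was 1.27 ± 0.27 (limma, adjusted p = 0.00177), and with centring it was 0.95 and did not pass (limma, adjusted p = 0.0952). The suffix _x_at marks a probe set with probes that also match other transcripts, so part of its signal may belong to them.

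The other Parn probe set, 1425422_a_at, read 237, 196, 227 and 155 in embryos, against 165, 59.3, 143 and 116 in oocytes. One-cell array 4 lay under MII array 1, and the change of 0.77 ± 0.33 did not pass (limma, adjusted p = 0.0864). The mean of both changed by 1.02 ± 0.25 (limma, adjusted p = 0.00675). The direction was thus shared by both probe sets, and only the first passed.

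Sympk, the scaffold that joins polyadenylation factors, was higher on 1428673_at, with 490, 157, 236 and 532 in one-cell embryos, against 24.3, 72.3, 34.7 and 48.7 in MII oocytes. The groups were apart, and the change was 2.64 ± 0.40 (limma, adjusted p = 0.000109). The oocyte values lay close to the array medians, and that of MII array 1 lay under its own, so the mean ratio of 7.87-fold is poorly set. The second probe set, 1459000_at, read 11.9 to 85.1 in embryos and 10.2 to 55.6 in oocytes, above the median on 1 embryo array and 3 oocyte arrays, and changed by 0.18 ± 0.54 (limma, adjusted p = 0.848). Averaged over both, Sympk changed by 1.41 ± 0.36 (limma, adjusted p = 0.00812).

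Some other mRNAs followed patterns over the 8 arrays close to those of Cpeb1 and Dazl. Likeness was measured as the root mean square difference of log2 signals centred on their mean, among 11559 other named genes. A like change follows from this choice and is no separate result. Nearest to Cpeb1 were Tm7sf3 (0.131), the BMP receptor Bmpr1b (0.147) and Nsmce3, a subunit of the SMC5/6 complex (0.167). These changed by -1.79, -1.93 and -1.88. Nearest to Dazl were Phospho2 (0.154), the replication fork protein Tipin (0.177) and the sorting nexin Snx9 (0.194), which changed by -0.76, -0.90 and -0.67. Of these, Tipin passed the test (limma, adjusted p = 0.0374), while Phospho2 (0.0972) and Snx9 (0.132) did not.

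Around these genes stand the other parts of the tail-length machinery, taken from a list of 43 genes, of which 41 were measured. By the brightest probe set of each, 10 were higher and 6 lower in one-cell embryos, and 25 did not pass the test. Over all 12359 genes, 20.1% were higher and 14.7% lower. The median change of the list was 0.09, and that of all genes 0.16. Of the 25 that did not pass, 9 had another probe set that did, higher for 2 genes and lower for 7. By the brightest probe sets, the counts of the list were near the general shares. Leaving out MII array 1, 3 or 4 brought the lower calls to 3 in each case, and without one-cell array 1 there were 12 higher and 5 lower.

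Among poly(A) polymerases, 1 of 5 rose and 2 fell on the brightest probe set. Tent2, the GLD-2 polymerase that lengthens tails in the cytoplasm of Xenopus oocytes, read 746, 1925, 1583 and 1981 in one-cell embryos, against 2835, 4599, 2554 and 3172 in MII oocytes. The groups were apart, and the change was -1.13 ± 0.35 (limma, adjusted p = 0.0211). Tent4a changed by -1.04 ± 0.37 (limma, adjusted p = 0.0385), but its other probe set was higher by 1.30, and the mean of both changed by 0.13. Papolg, a nuclear polymerase, changed by 2.87 ± 0.34. Its other probe set, with means of 29.2 in embryos and 56 in oocytes, changed by -0.77 and did not pass (limma, adjusted p = 0.201).

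Of the 12 cleavage and polyadenylation factors, 5 rose and 1 fell on the brightest probe set. Cpsf1, the large subunit of the specificity factor, rose by 2.39 ± 0.35, with 229 ± 83.8 in embryos and 32.9 ± 3.65 in oocytes (SD, n = 4 each). That oocyte level was close to the array medians, so the size of the rise is poorly set. Fip1l1 (1.43), Cpsf4 (1.65) and Cpsf3 (1.21), parts of the same factor, also rose, though Fip1l1 had another probe set that fell (-1.67). The mean of the 4 Fip1l1 probe sets changed by -0.09 (limma, adjusted p = 0.827). The rise of Cpsf3 was read by an _x_at probe set, and its other probe set did not pass (0.67, limma adjusted p = 0.129). Wdr33, a subunit that contacts the AAUAAA signal, changed by 2.47 ± 0.27 on its brightest probe set. Of its 6 others none was called higher and 2 were called lower, and the mean of all 7 changed by 0.02 (limma, adjusted p = 0.971). Cpsf2 changed by -0.91 ± 0.31 (limma, adjusted p = 0.034), and without one-cell array 1 it did not pass (-0.77, adjusted p = 0.0601). Cstf1, not called by its brightest probe set, was lower on its other one (-1.04, limma adjusted p = 0.0118).

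Among 7 poly(A)-binding proteins and their partners, 1 rose and 1 fell on the brightest probe set. Paip2, an inhibitor of poly(A)-binding protein, rose by 2.15 ± 0.31 (limma, adjusted p = 5.42e-05), with 1485 ± 406 in embryos and 328 ± 101 in oocytes. Pabpn1l, an oocyte relative of the nuclear poly(A)-binding protein, fell by 1.16 on the log2 scale (limma, adjusted p = 0.027). Paip1 and Pabpc4 were not called by their brightest probe set. Both other probe sets of Paip1 were lower (-1.14 and -1.06), and the other one of Pabpc4 was higher (1.47, limma adjusted p = 0.006).

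Of 6 measured partners and regulators of CPEB, 3 rose and none fell on the brightest probe set. Tacc3, whose Xenopus relative maskin binds CPEB, rose by 3.98 ± 0.33, and both other probe sets of it rose too. Cdk1, the kinase that in Xenopus marks CPEB for degradation, read 310, 1133, 959 and 692 in one-cell embryos, against 56.8, 53.8, 85.1 and 77.3 in MII oocytes. Its change was 3.19 ± 0.37 (limma, adjusted p = 7.22e-06). The third was Eif4enif1 (1.12 ± 0.32), which encodes the repressor 4E-T. The kinases Aurka (-0.24 ± 0.31) and Plk1 (0.19 ± 0.31) did not pass. Btrc, part of the ubiquitin ligase that in Xenopus targets CPEB, changed by -0.04 ± 0.30 on its brightest probe set, while 2 of its 4 others were called higher (2.64 and 1.23).

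By the brightest probe sets, deadenylation genes held 2 falls and no rise among 7. The CCR4-NOT nuclease Cnot8 changed by -1.86 ± 0.35 (limma, adjusted p = 0.000676), with 1583 ± 569 in embryos and 5681 ± 1682 in oocytes. Pan2, the catalytic subunit of the PAN2-PAN3 nuclease, changed by -1.23 ± 0.32 (limma, adjusted p = 0.00723). Among those not called by their brightest probe set, Cnot6 fell on 2 of its 3 other probe sets (-1.24 and -1.16) and Cnot6l on 1 (-1.60). Of the RNA-binding proteins Pum2, Msi1, Msi2 and Boll, none passed on its brightest probe set. Pum2 changed there by 0.69 (0.79 without one-cell array 1, where it passed, limma adjusted p = 0.0263), but another of its probe sets was lower (-0.77, adjusted p = 0.0322), as was 1 of Msi2 (-1.09, adjusted p = 0.0354).

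**Figure D5:**
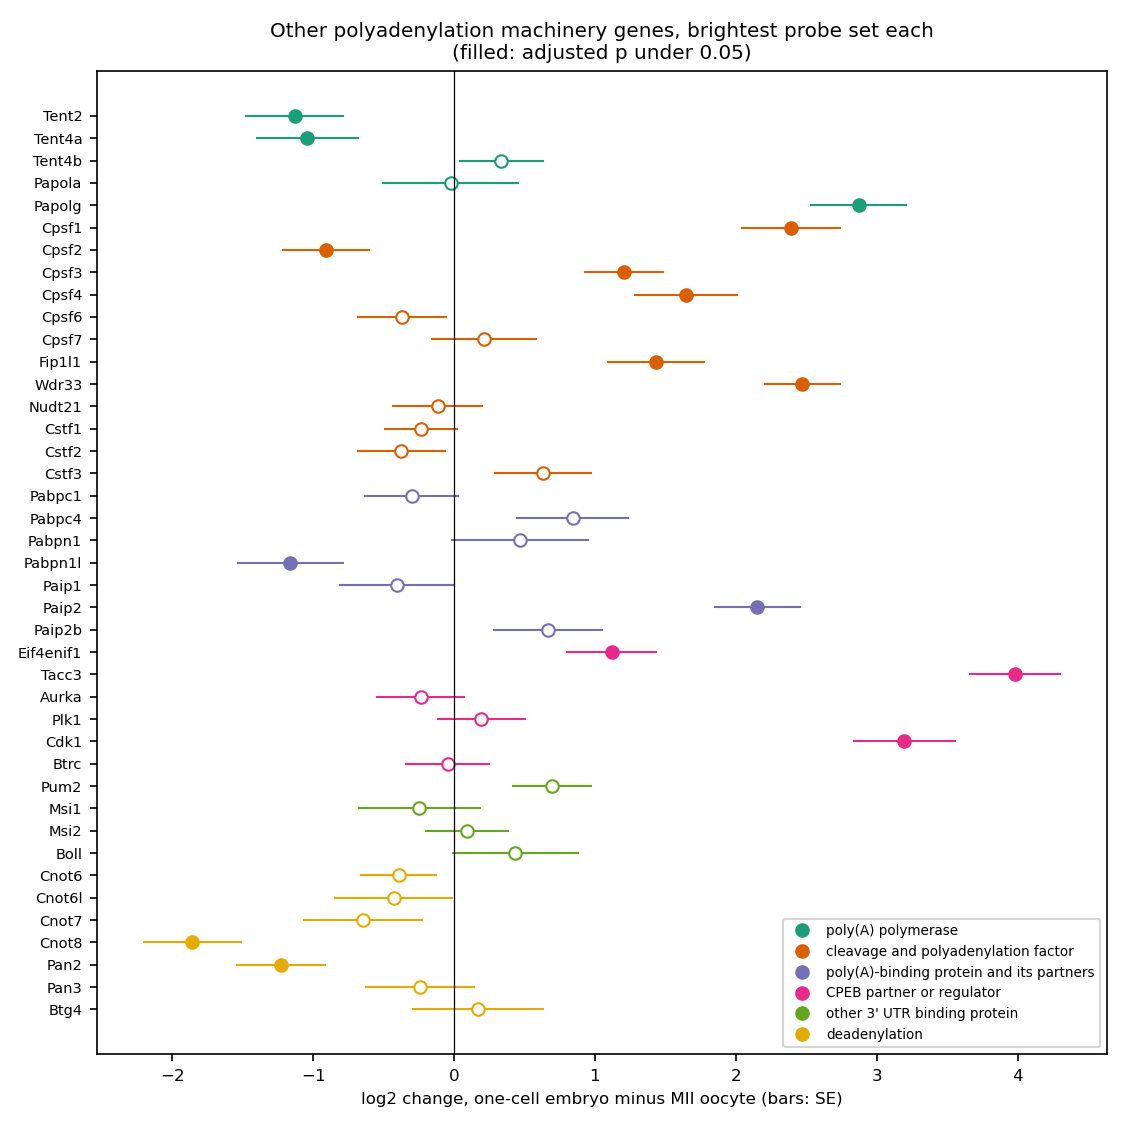
Log2 change (one-cell embryo minus MII oocyte) of the brightest probe set of 41 other polyadenylation machinery genes, with the SE of limma as bars, colours for roles and filled circles for an adjusted p under 0.05. Filled circles right of 0 number 10 and left of 0 number 6.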

How the data were processed

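Per the labels, polysomal RNA was amplified by 2 rounds of in vitro transcription, with a biotin label. The values that the authors deposited are linear intensities in arbitrary units; array software is not given in the sources used here. Scaling to a common trimmed mean (2% off each end) hides any change in total polysomal mRNA, and amplification favours 3′ ends. There are no detection calls, and the number of arrays limits precision.

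Intensities were used as deposited. After leaving out 64 control probe sets, log2(intensity + 10) entered a linear model per probe set (R 4.3.3, limma 3.58.1), with variances moderated by eBayes along a trend and two-sided p-values adjusted by Benjamini-Hochberg at a threshold of 0.05. The brightest probe set has the highest mean log2 signal. The procedure was tested on simulated data. Ratios within arrays used exact permutation tests (scipy 1.17.1).

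Named were all members, the 6 largest changes each way among list genes past the test, and the 3 nearest patterns to Cpeb1 and Dazl; other list genes, and those under other observations, were named after their values were seen. Members, lists and tests were chosen with earlier results of these data known. Same-numbered arrays deviated with correlations of -0.16, -0.11, 0.14 and 0.04, so numbers were not taken as pairs. Gene symbols follow GEO's platform annotation, updated through RefSeq. Alternatives covered normalization, offset, filter, variance model, array weights, replicate block, control covariate, arrays left out and probe sets averaged.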

Additional observations from a re-analysis of the deposited data

Results flagged for a closer look

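One-cell array 4 stood apart on the Cpeb3 probe set 1445868_at, at 44.3, whereas arrays 1 to 3 of the embryos read 109 to 126. Its gap to the nearest array was 0.859 of the range of the 4, above Dixon's critical value. It was the only such case among 32 groups of 4 arrays examined, and chance gives such a gap in about 1 of 20 groups.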

How the results depend on the processing

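Each probe set had values in 19 to 21 alternatives. A stricter filter dropped 3, and averaging gave 1 value per gene, counted under its brightest probe set. Of the member results, 302 kept their direction and side of the threshold, 12 passed newly, 2 no longer passed and 9 turned sign. All 9 were among probe sets that had not passed. The sign turned for Cpeb3 1445868_at with centring (-0.13) and quantile normalization (-0.27), for Cpeb4 1449931_at with quantile normalization (-0.18), and for Sympk 1459000_at with centring (-0.14), quantile normalization (-0.14) and the control covariate (-0.25). With 1 array left out, the last ran from -0.19 to 0.57. Lower calls among members numbered 5 to 8 with 1 array left out (8 without one-cell array 3), and higher calls 3 throughout. Lower calls among the 41 machinery genes were 3 to 5 with 1 array left out, 3 with quantile normalization, 3 with centring and 2 with the control covariate; the cause was not tested. With the replicate number as a block, 6 member probe sets were lower and 3 higher, and 7209 probe sets were called in all, against 7493. Signals near the array medians limit Cpeb2, Sympk, Cpsf1, Papola and the dimmer probe set of Papolg.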

Other observations

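Papola, the main nuclear poly(A) polymerase, was read by 5 probe sets, all with a negative change, that disagreed in its size. The brightest, 1455836_at, changed by -0.02 ± 0.48 (limma, adjusted p = 0.98), with 350 to 2228 in one-cell embryos and 470.5 to 1127 in MII oocytes. The 2228 was read on one-cell array 1, without which the change was -0.52 (limma, adjusted p = 0.354). The other probe sets were all called lower in embryos, but their embryo signals lay near or under the array medians (27.8 to 71.8), so the sizes of these falls are poorly set. The brightest of them, 1424216_a_at, read 53.0 to 80.5 in embryos and 1663 to 3452 in oocytes, and 1444015_at read 33.2 to 96.6 in embryos and 489 to 1002 in oocytes, both without overlap. On 1424217_at and 1427544_a_at every embryo signal, at most 19 and 25.6, was under the median of its array, against at least 52.3 and 57.9 in oocytes, and no size is given. Both were thus kept only through the oocyte arrays, so their lower calls are no separate support. The mean of all 5 was lower in embryos (limma, adjusted p = 4.17e-06), but it includes these dim signals. Fip1l1, which bridges the polymerase and the cleavage factor, differed in direction. It rose on 1452720_a_at (1.43 ± 0.35, limma adjusted p = 0.00444) and fell on 1428280_at (-1.67 ± 0.41, adjusted p = 0.00488).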
